A study of Homo sapiens with 6 samples.

Results

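The MYC, MAX and MXD network is the set of dimerizing transcription factors that share E-box DNA sites with MYCN, the gene switched on in this experiment. Its members were taken by gene symbol from the deposited counts of SK-N-AS cells: the MYCN relatives MYC and MYCL, the dimer partners MAX and MLX, the repressors MXD1, MXD3, MXD4, MXI1 and MNT, and the dual-domain factor MGA. These were 10 genes of 60651 gene identifiers, and all 10 had enough counts to be among the 29086 genes tested.

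SK-N-AS, a long-established line of human neuroblastoma cells, here carried a MYCN gene held off by the tetracycline repressor (TR) until tetracycline was added. The cells were single clones kept under G418-BC and Blasticidin, so both groups share the repressor, the construct and the selection, and the labels do not say which clone each library came from. The 3 control libraries have ETOH in their titles and are labelled as control, and the 3 induced libraries have Tet in their titles and received tetracycline for 120 h, or 5 days in the treatment label. Sequencing was in paired ends, on total RNA from which ribosomal RNA had been removed. The paper describes the replicates as independent experiments. An effect of MYCN and an effect of tetracycline cannot be told apart, since every induced library had both.

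MYC family proteins bind DNA only as dimers with MAX, and such dimers at E-boxes recruit acetyltransferases and elongation factors that raise transcription. The MXD proteins, MXI1 and MNT compete for the same MAX and the same sites, and bring SIN3 and histone deacetylases that lower it. MLX is a second dimer partner, shared by some of the repressors and by the glucose-responsive factors MLXIP and MLXIPL, while MGA joins MAX in a Polycomb complex that silences germline genes. In neuroblastoma, amplified MYCN marks aggressive tumours, and cell lines without the amplification often depend on MYC.

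The E-box itself can be shown for the members whose own promoters hold one. RefSeq promoter sequences (GRCh38.p14, 250 bases before to 50 after each annotated start) were available for 10 of the 11 genes formed by the members and MYCN, in 15 windows, and none was given for MYC. They were searched for the canonical E-box CACGTG, which reads the same on both strands, and for the lower-affinity form CACGCG on either strand, where it appears as CGCGTG when read on the other strand. A run of 6 letters can match only one of the forms, though neighbouring matches may share bases. The canonical form was present in the windows of 3 genes, MXD4, MNT and MLX, and the CACGCG form in those of 3 others, MXD3, MXI1 and MGA. Of 35116 RefSeq promoter windows of the same length, 7.26% held the canonical form and 11.4% the CACGCG form. These shares are per window, whereas the members were counted per gene. MXI1 and MGA each had 3 windows, of which 1 matched, so the 2 counts are not directly comparable. The 30 bases around each occurrence are given on the gene's own strand, with the E-box in capitals, because they show the motif that the network's dimers compete for.
MXD4: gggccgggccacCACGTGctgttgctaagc
MNT: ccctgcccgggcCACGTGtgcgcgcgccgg
MLX: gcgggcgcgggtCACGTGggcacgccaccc
MXD3: aaaaggccatttCGCGTGcctccagggtat
MXI1: aggtaaacaaacCACGCGcgggctgcccgc
MGA: agcgggtaggagCGCGTGcgcggtgacgtg

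The MXD4 stretch lies at chr4:2262330-2262359 on the minus strand, with the E-box 238 bases before the start and outside the annotated gene. That of MNT lies at chr17:2401236-2401265 on the minus strand, 193 bases before the start and also upstream of the gene. The MLX stretch is at chr17:42567038-42567067 on the plus strand, 50 bases before the start. In MXD3, at chr5:177312727-177312756 on the minus strand, the motif begins at base 9 of the transcript, in its first exon. In MXI1, at chr10:110225992-110226021 on the plus strand, it begins at base 9 of a transcript that starts inside the span of the gene, the third of 3 annotated starts. The MGA motif, at chr15:41660372-41660401 on the plus strand, is 21 bases before the second of 3 starts. The windows of MYCL, MAX, MXD1 and MYCN held neither set of letters. These are matches of letters and carry no measurement of binding.

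MYCN, the target of the induction, was checked first. It measured 30.3, 35.5 and 32.4 CPM (counts as a share of the library total, scaled between libraries by TMM) in control replicates 1, 2 and 3, and 210.7, 221.3 and 198.6 CPM in the induced ones. The groups were far apart, a 6.43-fold difference with an adjusted p of 4.15e-05 by edgeR's quasi-likelihood test, and every library matched its label. MYCNOS, an antisense transcript that shares 98 exon bases with MYCN, differed by 2.82 on the log2 scale (adjusted p 0.00176 by edgeR). According to their header the counts were made without a strand option. Reads of MYCN and MYCNOS on the shared bases therefore cannot be told apart. Reads of the introduced and the resident MYCN were counted together and cannot be told apart.

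The libraries held between 64500589 and 102249336 counted read pairs, the fewest in induced replicate 1. Induced replicate 3 stood apart, with a score of 69.1 on the main axis of variation (44.8% of the variance in a principal component analysis). Induced replicates 1 and 2 scored 14.4 and 13.1, and the controls -40.3 to -25.9. In that library the summed level of 8 proliferation genes was 920.3 CPM, against 1516.6 to 1718.4 in the other 5. The summed level of 7 stress response genes was 378.7 CPM there, and 115.0 and 68.2 CPM in induced replicates 1 and 2. It was 48.8 to 50.3 CPM in the controls, below each induced library. The part of the proliferation and stress response genes in the member values was not tested. Markers of both neuroblastoma states were present, with adrenergic markers summing to 980.2 to 1417.1 CPM and mesenchymal ones to 574.4 to 683.8 CPM, although CD44 was at 0 in every library, and all 5 epithelial markers were under 1 CPM. In whole-culture RNA, fewer cells of one kind and less RNA per cell cannot be told apart. Each member is therefore given in every library, and with and without induced replicate 3 wherever this changed a call.

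Across the network, MXI1 was the only member that passed an adjusted p of 0.05, and it rose. By edgeR, 1 of 10 members was called higher, beside 1.02% of all tested genes, and 0 were called lower, beside 2.38%. At an unadjusted p under 0.05, 3 members were higher, beside 8.13% of all tested genes, and 0 were lower, beside 10.6%. In all 3 induced libraries MAX, MXD1, MXI1 and MNT lay above every control (4 of 10 members, beside 11.5% of tested genes), and MYCL lay below every control (1 of 10, beside 14.7%). The other 5, namely MYC, MLX, MXD3, MXD4 and MGA, overlapped between groups. With DESeq2, the tool used in the study, MAX and MNT joined MXI1, giving 3 members higher beside 3.11% of genes and 0 lower beside 4.12%. Without induced replicate 3, MXI1 and MAX were higher (2 members, beside 3.68%) and MYC was lower (1 member, beside 4.44%). The median log2 fold change of the members was 0.099, against -0.0 over all tested genes.

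**Figure D1:**
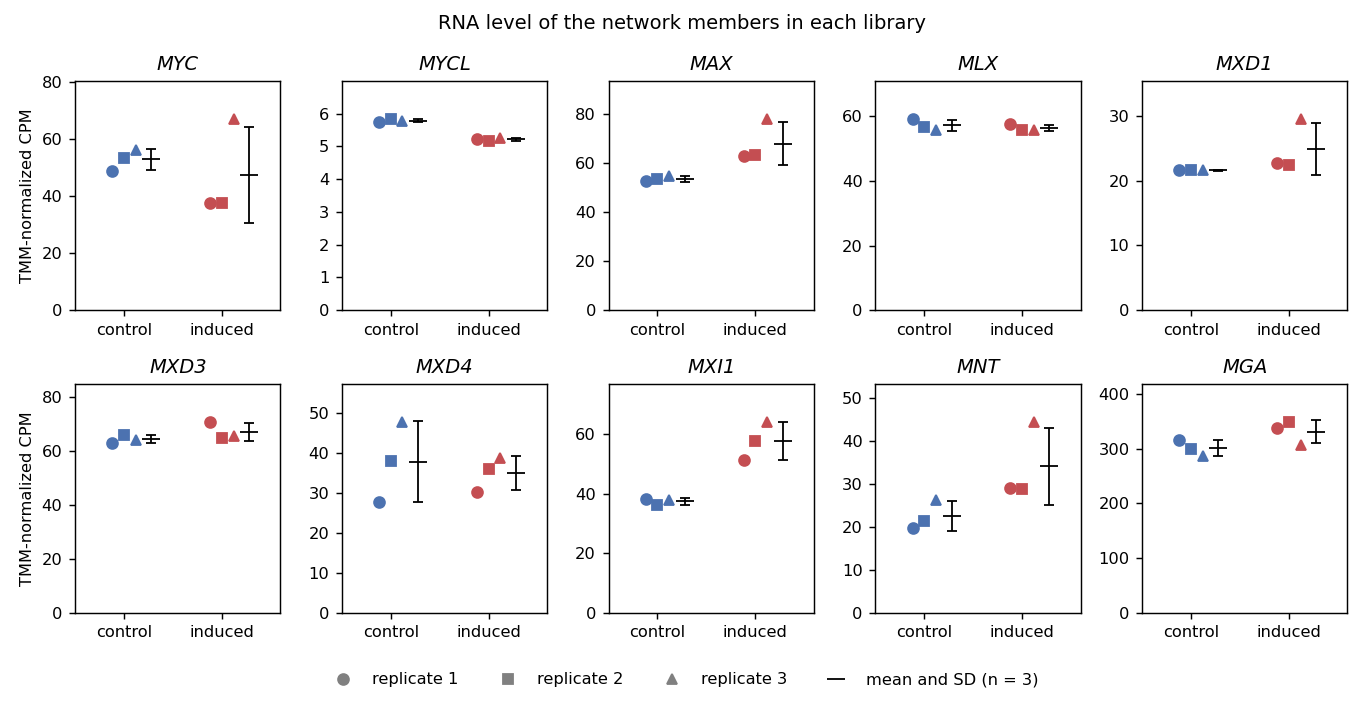
TMM-normalized CPM (vertical axes, from 0, a separate scale for each gene) of the 10 members in 3 control (blue) and 3 MYCN-induced (red) libraries, with the marker shape giving the replicate number and bars the mean and SD. MXI1, MAX, MXD1 and MNT have every induced library above every control, and induced replicate 3, the red triangle, is the highest of the 6 for these and for MYC.

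MYC, the founding member and the paralog of MYCN, is annotated at chr8:127735434-127742951 on the plus strand (ENSG00000136997.21). It measured 48.8, 53.4 and 56.2 CPM in the controls and 37.6, 37.5 and 66.9 CPM in the induced libraries. Induced replicates 1 and 2 lay below every control and induced replicate 3 above every control, so the groups had similar means with very different spreads: 52.8 ± 3.74 CPM against 47.3 ± 16.9 CPM (SD, n = 3). The log2 fold change was -0.16 (SE 0.22, 95% interval -0.66 to 0.34), with an adjusted p of 0.757 by edgeR. Without induced replicate 3 it was -0.48 (SE 0.08) with an adjusted p of 0.016, the only setting of 15 in which MYC was called.

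Transcripts around MYC on chromosome 8 showed no called difference. PVT1, the long noncoding RNA next to MYC, measured 127.2, 113.8 and 104.6 CPM in the controls and 135.5, 130.4 and 122.5 CPM in the induced libraries, a log2 fold change of 0.17 (SE 0.09) with an adjusted p of 0.350 by edgeR. Its control and induced values overlapped, and induced replicate 3 did not stand out there. For PCAT1 the log2 fold change was 0.08, with an adjusted p of 0.859. Of 7 transcripts listed at the locus, 4 were tested, and by edgeR 0 passed, also at an unadjusted p under 0.05, by DESeq2 and without induced replicate 3. CASC11, whose exons share 194 bases with MYC on the opposite strand, was among them (log2 fold change -0.05, adjusted p 0.950).

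MYCL, the third paralog, is annotated at chr1:39895426-39902256 on the minus strand and was the least abundant member. It measured 5.73, 5.83 and 5.78 CPM in the controls and 5.24, 5.17 and 5.25 CPM in the induced libraries. Each induced value was below each control value, with little spread in either group (5.78 ± 0.0507 CPM against 5.22 ± 0.0416 CPM, SD, n = 3). The log2 fold change was -0.15 (SE 0.09, 95% interval -0.36 to 0.07) and the adjusted p 0.466 by edgeR, with a range of -0.18 to -0.11 over the 15 settings. MYCL-AS1, which shares 226 bases with it on the opposite strand, had -0.17 (adjusted p 0.743).

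MAX, the partner required by every MYC protein, is annotated at chr14:65006174-65102695 on the minus strand. Its levels were 52.5, 53.3 and 54.8 CPM in the controls and 62.8, 63.1 and 77.8 CPM in the induced libraries. All induced values were above all controls, with the largest in induced replicate 3. The fitted difference was 1.27-fold (log2 0.34, SE 0.09, 95% interval 0.12 to 0.56), with an adjusted p of 0.101 by edgeR and 0.0478 by DESeq2. Without induced replicate 3 the log2 fold change of MAX was smaller, 0.24 (SE 0.05), and the adjusted p was 0.0371. MAX shares 16.1% of its exon bases with transcripts on the opposite strand, including FNTB, the farnesyltransferase beta subunit. FNTB showed a log2 fold change of -0.04 (adjusted p 0.875 by edgeR) and the read-through gene CHURC1-FNTB 0.06 (adjusted p 0.788). ENSG00000259118 had 0.40, with an adjusted p of 0.0833 by edgeR and 0.0114 by DESeq2. By edgeR without induced replicate 3 the adjusted p of ENSG00000259118 was 0.0476.

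MLX, the alternative dimer partner, is annotated at chr17:42567072-42573239 on the plus strand and did not separate the groups. Its levels were 59.1, 56.7 and 55.7 CPM in the controls and 57.6, 55.9 and 55.7 CPM in the induced libraries. The log2 fold change was -0.02 (SE 0.06), and its 95% interval of -0.16 to 0.12 was the narrowest among the members. The adjusted p was 0.907 by edgeR. MLX shares 18.2% of its exon bases with PSMC3IP, on the opposite strand, which showed a log2 fold change of 0.00 (adjusted p 0.983).

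MXI1, a repressor of the MXD family that competes with MYC proteins for MAX, rose with induction. It is annotated at chr10:110207605-110287365 on the plus strand (ENSG00000119950.21), with 5907 exon bases. The control levels were 38.2, 36.2 and 37.9 CPM (37.4 ± 1.10, SD, n = 3) and the induced levels 51.3, 57.6 and 64.1 CPM (57.6 ± 6.40, SD, n = 3). The lowest induced library was well above the highest control. The difference was 1.54-fold with a 95% interval of 1.33 to 1.78 (log2 0.62, SE 0.09), and the adjusted p was 0.0154 by edgeR and 4.41e-06 by DESeq2. Without induced replicate 3 the log2 fold change was 0.55 and the adjusted p 0.00683. The size of the rise varied little over the 15 settings, from 0.55 to 0.71 on the log2 scale. Its call was lost when any control was left out, with adjusted p values of 0.0654, 0.112 and 0.0836 without control replicates 1, 2 and 3, at log2 fold changes of 0.60 to 0.63.

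An unnamed transcript antisense to MXI1, ENSG00000228417, was also higher. It shares 205 bases with the exons of MXI1, which are 3.5% of the MXI1 exons and 43.6% of its own. Its level was 0.801 ± 0.0779 CPM in the controls and 1.77 ± 0.262 CPM in the induced libraries (SD, n = 3), with no overlap, a log2 fold change of 1.15 and an adjusted p of 0.0146 by edgeR. The deposited counts were made without a strand option according to their header, so reads of MXI1 and of this transcript on the shared bases cannot be told apart.

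MNT, a repressor present in both resting and dividing cells, is annotated at chr17:2384073-2401104 on the minus strand. It measured 19.8, 21.3 and 26.4 CPM in the controls and 29.1, 28.8 and 44.5 CPM in the induced libraries. Every induced value was above every control, but control replicate 3 came close to induced replicates 1 and 2, and induced replicate 3 was far above them. The fitted difference was 1.52-fold (log2 0.60, SE 0.19, 95% interval 0.17 to 1.04), nearly the size of that of MXI1 but with a larger error, and the adjusted p was 0.138 by edgeR and 0.0443 by DESeq2. Without induced replicate 3 it was 0.37 on the log2 scale with an adjusted p of 0.127. All exon bases of ENSG00000262456, on the opposite strand, lie within MNT exons (1065 bases, 12.2% of MNT). ENSG00000262456 showed a log2 fold change of 0.75, with an adjusted p of 0.127 by edgeR and 0.0284 by DESeq2. By edgeR without induced replicate 3 its adjusted p was 0.143.

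The 3 MXD genes did not pass the test. MXD1, an antagonist known from differentiating cells, measured 21.6, 21.6 and 21.7 CPM in the controls and 22.7, 22.4 and 29.5 CPM in the induced libraries. The induced values were all above the controls, narrowly so in induced replicates 1 and 2, and the log2 fold change of 0.20 (SE 0.12, adjusted p 0.410 by edgeR) was 0.07 without induced replicate 3. SNRNP27, a splicing protein gene that shares 237 exon bases with MXD1 on the same strand, had 0.30 (adjusted p 0.184).

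MXD3, which unlike the other MXD genes is known from S phase of dividing cells, measured 63.1, 65.9 and 63.9 CPM in the controls and 70.8, 64.7 and 65.6 CPM in the induced libraries. The groups overlapped, with a log2 fold change of 0.06 (SE 0.07, 95% interval -0.09 to 0.21) and an adjusted p of 0.692 by edgeR. The level of MXD3 is uncertain because 40.2% of its exon bases are shared with neighbours: PRELID1, a mitochondrial lipid transfer protein on the opposite strand, and RAB24, on the same strand. PRELID1 showed a log2 fold change of 0.09 (adjusted p 0.506) and RAB24 of -0.10 (adjusted p 0.639).

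MXD4 was the member with the widest spread among controls relative to its mean. It measured 27.7, 38.1 and 47.8 CPM there and 30.2, 36.0 and 38.7 CPM in the induced libraries, which lay inside the control range. A microRNA gene, MIR4800, lies wholly within its exons (log2 fold change 0.17, adjusted p 0.882). The log2 fold change was -0.12 (SE 0.19, 95% interval -0.55 to 0.32) with an adjusted p of 0.802 by edgeR, and it turned to 0.08 without control replicate 3.

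MGA, which carries both a T-box and a MAX-binding domain, had the highest counts of the members. Its levels were 315.9, 299.4 and 287.0 CPM in the controls and 336.9, 348.9 and 307.0 CPM in the induced libraries. Induced replicate 3 fell within the control range, and the log2 fold change of 0.14 (SE 0.07, 95% interval -0.03 to 0.31) had an adjusted p of 0.370 by edgeR. Of its exon bases 3.3% are shared with antisense transcripts, of which ENSG00000260814, at 0.705 ± 0.0645 CPM in the controls and 0.939 ± 0.111 CPM in the induced libraries, was tested (adjusted p 0.241) and ENSG00000260926, which shares 75 bases, had too few counts.

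**Figure D2:**
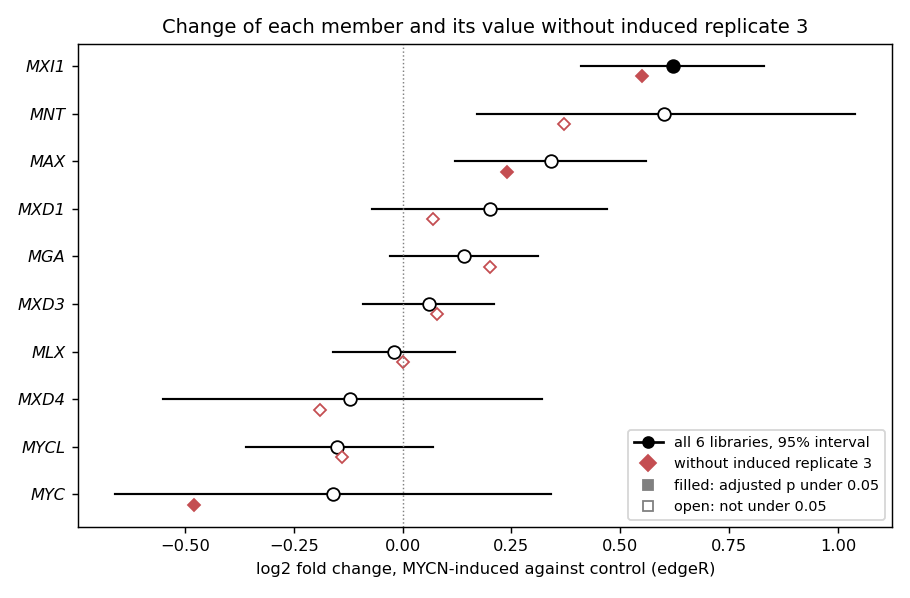
Log2 fold change of each member between MYCN-induced and control libraries (horizontal axis), with the 95% interval from edgeR over all 6 libraries (black circles and lines) and the value without induced replicate 3 (red diamonds), filled where the adjusted p was under 0.05. MXI1 is filled in both at 0.62 and 0.55, MAX and MYC only without that library at 0.24 and -0.48.

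Levels of different genes were compared per exon length, in TPM (counts divided by exon length and scaled to one total in every library). In the control cells MGA was highest at 28.0 ± 2.78 TPM (SD, n = 3), followed by MLX at 22.1 ± 1.79, MYCN at 20.5 ± 1.43, MXD3 at 20.5 ± 0.957, MYC at 18.9 ± 0.398, MAX at 14.0 ± 0.425, MXI1 at 10.4 ± 0.684, MXD4 at 8.97 ± 1.96, MXD1 at 5.59 ± 0.265, MNT at 4.23 ± 0.452 and MYCL at 1.87 ± 0.0871. Neighbours in this order were separate in every control library except MLX and MYCN, MYCN and MXD3, and MXI1 and MXD4, whose ranges overlapped. Per exon length, MYC RNA in uninduced cells was thus just under MYCN RNA, and both were above MAX in every control library. This order rests on the lengths, which count all annotated exons: 4584 bases for MYC, 2616 for MYCN and 6257 for MAX. In CPM, not divided by length, the control means were 52.8 for MYC, 32.7 for MYCN and 53.5 for MAX. With induction MYCN moved to the top at 133 ± 23.8 TPM, followed by MGA at 31.0 ± 5.85 TPM. The order of the others was kept except that MAX, at 17.7 ± 0.795 TPM, passed MYC, at 16.5 ± 3.70 TPM, but these ranges overlapped. MXI1, at 14.6, 17.9 and 15.4 TPM, overlapped MYC, while in the controls each of its values was below each of the MYC values.

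The levels were summed by role in each library, as a description with no test. The 3 MYC paralogs (MYC, MYCL and MYCN) summed to 40.4, 43.0 and 40.4 TPM in the controls and 151, 172 and 130 TPM in the induced libraries, 3.64-fold more. In mean level all of the added RNA was MYCN, whose share of the sum was 48.0% to 51.5% in the controls and 82.9% to 90.2% after induction. The means of MYC (18.9 and 16.5 TPM) and MYCL (1.87 and 1.70 TPM) were lower in the induced libraries, with overlapping TPM ranges. MYC made up 45.6%, 44.2% and 47.6% in the controls and 9.13%, 8.73% and 15.9% in the induced libraries. With MYCN left out, the paralog sum had a log2 difference of -0.21. The induced libraries did not go the same way in this: MYC was at 13.8 and 15.0 TPM in induced replicates 1 and 2. In induced replicate 3 it was at 20.7 TPM, above the controls at 18.4 to 19.2 TPM.

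The 5 repressors (MXD1, MXD3, MXD4, MXI1 and MNT) summed to 49.2, 49.4 and 50.4 TPM in the controls and 56.7, 63.0 and 55.3 TPM in the induced libraries. These did not overlap, and the difference was 1.17-fold. MXD3 was the largest contributor among the repressors in each library, at 38.5% to 43.1% in the controls and 32.7% to 40.7% in the induced libraries, and carries the uncertainty from shared exon bases given above. The share of MXI1 was 19.9% to 22.8% in the controls and 25.7% to 28.4% in the induced libraries. The 2 dimer partners MAX and MLX together gave 38.5, 35.6 and 34.2 TPM in the controls and 39.7, 42.6 and 36.2 TPM in the induced libraries, with overlap.

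The balance between the roles moved through MYCN itself, the induced gene, so a rise in ratios that count MYCN was given by the design. With MYCN left out, the log2 difference was -0.44 for paralogs to repressors and -0.33 for paralogs to MAX and MLX. The paralog sum is then mostly MYC, which was below every control in induced replicates 1 and 2 and above every control in induced replicate 3. These differences of means therefore do not describe the 3 induced libraries alike. The values that follow include MYCN. The ratio of paralog to repressor RNA was 0.822, 0.870 and 0.800 in the controls and 2.66, 2.73 and 2.35 in the induced libraries, 3.10-fold higher, without overlap. The ratio of paralogs to the sum of MAX and MLX was 1.05, 1.21 and 1.18 in the controls and 3.81, 4.04 and 3.59 in the induced libraries, 3.33-fold higher. It is not the ratio of MYC proteins to their own partner, which is MAX alone. MAX was the smaller part of that sum, at 14.0 TPM beside 22.1 for MLX in the controls, and 17.7 beside 21.8 after induction. Against MAX alone the paralog ratio is thus higher in both groups. The ratio of repressors to MAX and MLX overlapped, at 1.28 to 1.47 in the controls and 1.43 to 1.53 in the induced libraries. These are ratios of RNA, and no protein level was analysed here.

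**Figure D3:**
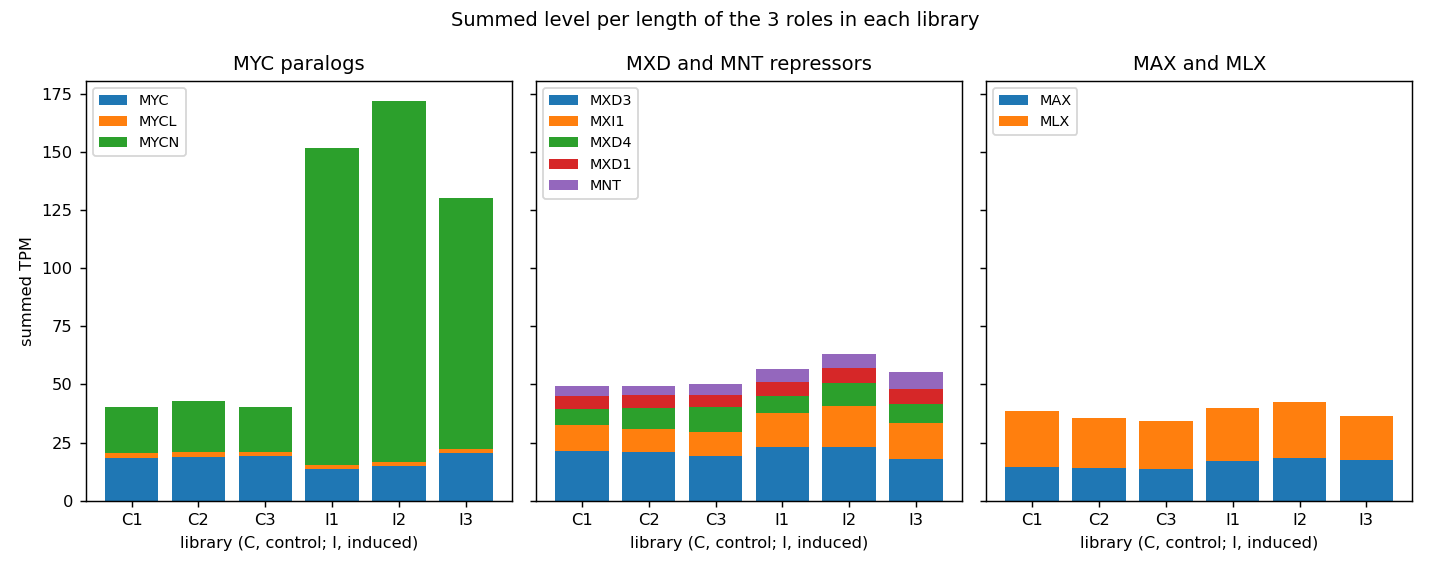
Summed TPM (vertical axis, common to the panels) of the MYC paralogs, the MXD and MNT repressors and the dimer partners MAX and MLX in each library (C, control, I, induced, with the replicate number), with colours giving the gene. The paralog bars reach 130 to 172 TPM after induction through MYCN, while the repressor bars stay between 49.2 and 63.0 TPM and the MAX and MLX bars between 34.2 and 42.6 TPM.

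The proteins that the members work with were read in lists written from general knowledge, holding 119 genes in all, of which 105 were tested. By edgeR 1 was called higher, beside 1.02% of all tested genes, and 4 lower, beside 2.38%, and the median log2 fold change was 0.012. DESeq2 called 7 higher, beside 3.11%, and 4 lower, beside 4.12%, and edgeR without induced replicate 3 called 9 higher, beside 3.68%, and 6 lower, beside 4.44%. At an unadjusted p under 0.05 by edgeR, 13 were higher, beside 8.13% of all tested genes, and 6 lower, beside 10.6%. These shares of all tested genes apply to each list that follows. Leaving out any single library other than induced replicate 3 left 0 called in either direction at an adjusted p under 0.05.

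The partners of MLX and their best known targets were not called. MLXIP, the MLX partner also named MondoA, showed a log2 fold change of -0.11 (adjusted p 0.531), and MLXIPL was nearly absent, at 0.414 ± 0.0908 CPM in the controls and 0.353 ± 0.102 CPM in the induced libraries. TXNIP, an inhibitor of glucose uptake and the classic target of MLXIP and MLX, measured 48.5, 43.8 and 44.6 CPM in the controls and 35.8, 33.0 and 49.3 CPM in the induced libraries. As for MYC, induced replicates 1 and 2 were below every control and induced replicate 3 above. The log2 fold change of TXNIP was -0.21 (adjusted p 0.496 by edgeR), and -0.40 (adjusted p 0.0179) without induced replicate 3. ARRDC4, a related arrestin with the same regulator, measured 12.3, 11.4 and 11.3 CPM in the controls and 9.34, 9.30 and 14.7 CPM in the induced libraries, the same arrangement, with an adjusted p of 0.885.

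Of the 19 SIN3 and histone deacetylase subunits that the MXD proteins recruit, edgeR and DESeq2 each called 0, and 4 had an unadjusted p under 0.05 by edgeR, 3 higher and 1 lower. Their median log2 fold change was 0.078. SIN3A, the scaffold bound by MXD proteins, showed a log2 fold change of 0.02 (SE 0.07, adjusted p 0.928). The smallest p values were those of SAP30L, a SIN3 subunit (log2 fold change -0.25, adjusted p 0.0981), and HDAC2, a deacetylase (0.25, adjusted p 0.123), both past the threshold without induced replicate 3 at 0.0299 and 0.0218.

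The median log2 fold change of the 16 subunits in the Polycomb complex around MGA was -0.003, and edgeR and DESeq2 each called 0, with 1 higher and 1 lower at an unadjusted p under 0.05. L3MBTL2, a reader subunit, showed a log2 fold change of -0.04 (adjusted p 0.915), E2F6, which brings the complex to E2F sites, -0.01 (adjusted p 0.966), and PCGF6, its Polycomb ring finger subunit, 0.27 (adjusted p 0.398). PCGF6 was called higher without induced replicate 3, at 0.43 (adjusted p 0.0219), as was HDAC2, which this complex shares with the SIN3 complex. RYBP, another subunit, was at 0.342 ± 0.0438 CPM in the controls and 0.194 ± 0.0409 CPM in the induced libraries (adjusted p 0.133), with as few as 14 counts.

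Of 16 germline genes that this complex is known to silence, 9 had too few counts to be tested. Among all 60651 gene identifiers, 29086 were tested, so a large untested part is not particular to this list. Of the 7 tested, 3 fell by edgeR (beside 2.38% of all tested genes), and DESeq2 called the same 3 lower and 1 higher (beside 4.12% and 3.11%). STAG3, a meiotic cohesin subunit, went from 14.8 ± 0.588 to 10.9 ± 0.561 CPM (SD, n = 3), a log2 fold change of -0.43 with an adjusted p of 0.0438 by edgeR. TDRKH, a Tudor protein of the piRNA pathway, went from 7.80 ± 0.107 to 4.93 ± 0.861 CPM (log2 fold change -0.66, adjusted p 0.0484). STK31, a germ cell kinase, was at 0.487, 0.327 and 0.434 CPM in the controls and 0.139, 0.107 and 0.0708 CPM in the induced libraries (log2 fold change -2.00, adjusted p 0.0191), with as few as 6 counts. The 3 lay below every control in each induced library, as did 14.7% of all tested genes. TEX15 and MEIOC, also in this list, lay above every control, as did 11.5% of tested genes. Both were only narrowly above in induced replicate 3.

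Among 19 coactivators of MYC proteins, KAT2B, the acetyltransferase PCAF, was called lower and 0 were called higher, beside 2 higher at an unadjusted p under 0.05. KAT2B measured 5.47, 5.05 and 5.53 CPM in the controls and 3.64, 3.59 and 3.56 CPM in the induced libraries, a log2 fold change of -0.57 (SE 0.10) with an adjusted p of 0.0294 by edgeR. TRRAP, the large scaffold of acetyltransferase complexes, showed a log2 fold change of 0.03 (adjusted p 0.813), and RUVBL1, an ATPase of the same complexes, 0.21 (adjusted p 0.158). Of 8 proteins through which MYC represses genes, edgeR and DESeq2 called 0, also at an unadjusted p under 0.05, with ZBTB17, the protein MIZ1, at 0.21 (adjusted p 0.628), DNMT3A, a DNA methyltransferase, at -0.15 (adjusted p 0.347) and HDAC3, a deacetylase, at -0.13 (adjusted p 0.445).

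Of 20 genes for the turnover of MYC proteins, edgeR called 0, 4 were higher at an unadjusted p under 0.05, and DESeq2 called 3 higher. On leaving out induced replicate 3, edgeR called 4 higher. FBXW7, the ubiquitin ligase that marks phosphorylated MYC proteins for destruction, showed a log2 fold change of 0.09 (adjusted p 0.542). SET, an inhibitor of the phosphatase that destabilizes MYC, had 0.25, with an adjusted p of 0.0764 by edgeR, 0.0134 by DESeq2 and 0.0136 without induced replicate 3. USP36, a nucleolar deubiquitinase of MYC, had 0.32, with an adjusted p of 0.0833 by edgeR, 0.0363 by DESeq2 and 0.0496 without that library.

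Of other helix-loop-helix factors that read E-boxes, 11 of 13 were tested and 1 rose by edgeR, while DESeq2 called 3 higher. MITF, the melanocyte and lysosome regulator, measured 8.22, 7.24 and 7.75 CPM in the controls and 11.3, 13.2 and 10.9 CPM in the induced libraries, without overlap, a log2 fold change of 0.61 (SE 0.11) with an adjusted p of 0.0326 by edgeR. TFAP4, a known MYC target that itself binds E-boxes, measured 28.8 ± 4.87 CPM in the controls and 40.8 ± 3.34 CPM in the induced libraries, 0.50 on the log2 scale with an adjusted p of 0.0881 by edgeR and 0.0215 by DESeq2.

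**Figure D4:**
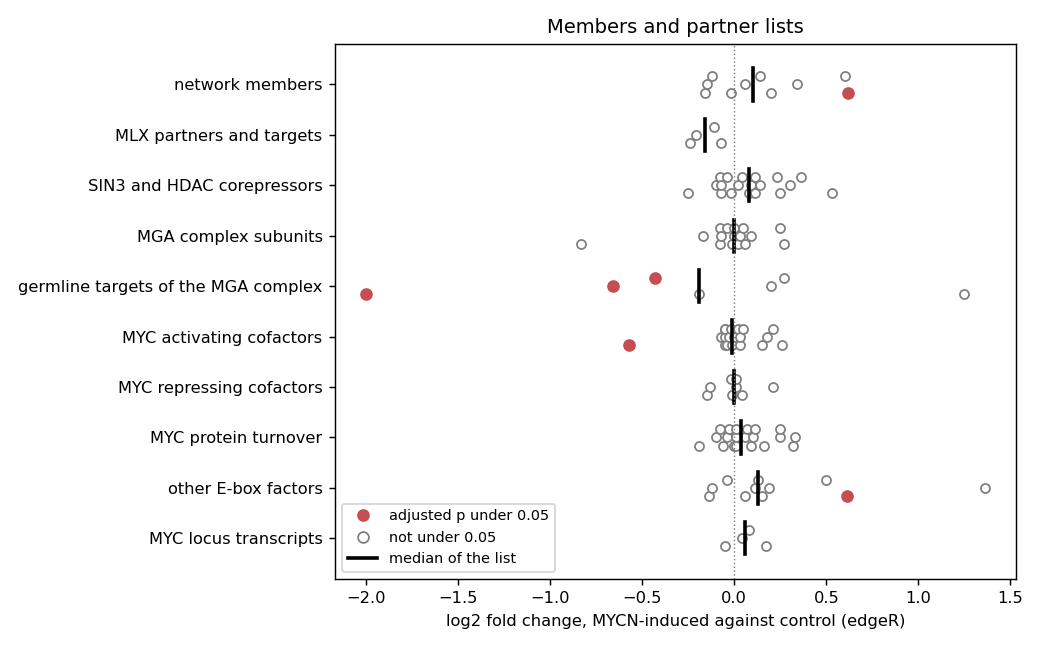
Log2 fold change (horizontal axis, edgeR, MYCN-induced against control) of each tested gene in the network and in 9 partner lists, filled red where the adjusted p was under 0.05, with the median of each list as a bar. Called genes are MXI1 among the members, 3 germline targets and KAT2B to the left of 0, and MITF to the right.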

How the data were processed

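Control and induced libraries were taken from the sample labels. The authors deposited estimated counts, that is read pairs per gene over exons, with fractions where a pair overlapped several genes. The header names featureCounts 1.6.4 on unique alignments, with no strand option, while the processing notes name STAR 2.7.1a and featureCounts 1.5.1 and the methods name a strand option, so counts of overlapping genes are uncertain. The build is GRCh38, and 99.65% of identifiers matched gene names. All 92 spike-in rows were at 0. Replicates differed by more than counting noise, with a chi-square per gene of 12.1 to 149, and each was kept as 1 sample.

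Counts were rounded, filtered to at least 10 in at least 3 libraries, and tested with edgeR 4.0.16 (R 4.3.3; TMM, quasi-likelihood, no block) with Benjamini-Hochberg adjustment over 29086 genes and a threshold of 0.05. Alternatives were DESeq2 1.42.0, other normalizations and filters, unrounded counts, a replicate block, leaving out each library and, added after the data were seen, a GC correction. TPM used the exon lengths in the files.

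The members and lists were chosen with earlier results of these data known. For that reason a permutation test of the role sums, planned at first, is not reported. Named partners are every gene sharing exon bases with a member, those past the threshold in each list (at most 6), otherwise the smallest p values up to 2, and 11 well known partners whatever their values. DNA sequences are from RefSeq. Protein, circRNA and growth data were not analysed here.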

Additional observations from a re-analysis of the deposited data

How the results depend on the processing

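Same-numbered control and induced libraries did not deviate together (correlations 0.22, -0.02 and 0.07, and not every library correlated best with its own number), so the numbers were not used as pairs. With the replicate block 2 members were higher (MXI1, adjusted p 0.0241, and MNT, 0.0308), 2 partner list genes were higher and 1 lower. Genes called higher numbered 298 over the whole table, and 904 by DESeq2, 470 with no count filter, 596 with the GC correction and 18 to 1060 leaving out a library in turn, with the fewest without control replicate 2 and the most without induced replicate 3. Genes called lower numbered 692, and 1199 by DESeq2, 404 with at least 100 counts in every library and 72 to 1279 leaving out a library, with the same libraries at the ends. Members called higher numbered 1, and 3 by DESeq2 and 0 to 2 leaving out a library. Members called lower numbered 0, and 0 to 1 leaving out a library, the 1 being MYC without induced replicate 3. Partner list genes called higher numbered 1, and 0 with library size only, 7 by DESeq2, 3 with no count filter, 5 with the GC correction and 0 to 9 leaving out a library. Those called lower numbered 4, and 2 with at least 100 counts and 0 to 6 leaving out a library. The direction turned for MXD4 without control replicate 3 (0.08, against -0.30 at the other end when a library was left out) and for MLX with the GC correction (0.02). The log2 differences of role sums changed most with MYCN left out (paralogs -0.21, paralogs to repressors -0.44, paralogs to MAX and MLX -0.33) and were smaller in CPM not divided by length (1.53, 1.28 and 1.36). Where not given by the setting itself, the cause was not tested. The other 8 members kept their direction in every setting, and MXI1 was past the threshold in 12 of 15.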

Other observations

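A pair of genes in the partner lists stood out by the spread of their induced libraries and were picked after their values were seen. TEX15, a germline gene of the piRNA pathway, measured 2.67, 2.59 and 2.59 CPM in the controls and 7.35, 8.67 and 2.71 CPM in the induced libraries. Its level was thus about the control level in induced replicate 3 and raised in the other induced libraries, against the direction of the 3 germline genes that fell. The log2 fold change was 1.25 (SE 0.37, adjusted p 0.119 by edgeR and 0.00743 by DESeq2), and 1.62 (adjusted p 0.00155) without induced replicate 3. BHLHE40, an E-box factor of stress and circadian responses, went from 2.35 ± 0.177 to 6.02 ± 3.72 CPM (SD, n = 3), a log2 fold change of 1.36 (adjusted p 0.102 by edgeR and 0.00355 by DESeq2), and 0.73 (adjusted p 0.0162) without that library.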
